A study of Homo sapiens with 6 samples.

Results

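Binding of SMAD2 and SMAD3 was examined at the genomic regions where a ChIP-seq (chromatin immunoprecipitation and sequencing) peak was listed in both Hs578T and BT549. Peaks of the 4 deposited lists that shared at least 1 bp were joined into regions, and a region was kept when it held at least 1 Hs578T peak and at least 1 BT549 peak at any time. This gave 311 regions of 15870. They are 11.1% (10.0 to 12.4, 95% Wilson interval) of the 2792 regions with a Hs578T peak and 2.32% (2.08 to 2.59, 95% Wilson interval) of the 13389 with a BT549 peak. Intervals cover counting error only. The regions were chosen by the positions of the listed peaks in these libraries, so their presence in both lines is a description and not a finding. Positions are on hg19, counted from 1.

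Hs578T and BT549 are established human triple-negative breast cancer cell lines, each cultured in medium with serum and insulin. All 4 libraries are from cells treated with recombinant human TGFβ3, collected at 16 h or at 1.5 h, and the same SMAD2/3 antibody was used in each. Each line and time is represented by a single library, so there is no replicate, no test between conditions and no p-value. An untreated SMAD2/3 library was not analysed here, and the 2 input samples, 1 per line, were not used, so occupancy before TGFβ is not known from these values.

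TGFβ ligands bring together type I and type II receptor kinases, which phosphorylate SMAD2 and SMAD3. The activated proteins join SMAD4, enter the nucleus and bind DNA together with partner factors that differ between cell types. Among the genes that SMAD complexes are known to switch on in many cell types are inhibitors of the pathway itself, such as SMAD7, SKIL and PMEPA1. Regions listed in both lines are described here with the genes that lie beside them.

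Gene names beside regions are background from general knowledge of the hg19 map. No hg19 annotation or sequence was used here, so no distance to a gene is given and the bases under the peaks are not shown. All 52 symbols looked up lie on the chromosome of their region in the RefSeq gene table of GRCh38.p14, which was used for names, chromosomes and neighbouring genes only.

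Promoter sequences are shown for 3 genes of the SMAD response whose starts lie at or next to a region listed in all 4 libraries: SMAD6 and SKIL, inhibitors of SMAD signalling, and BHLHE40, a helix-loop-helix repressor. They are RefSeq promoters of GRCh38.p14 on the plus strand (SMAD6 chr15:66701986-66702285, SKIL chr3:170357465-170357764, BHLHE40 chr3:4979187-4979486), each 300 bases long, from 250 bases before the start to 50 bases after it. The letters in capitals match GTCTAGAC (the palindromic SMAD-binding element), CAGACA on either strand, GGCGCC (a GC-rich SMAD site) or, on either strand, TGACTCA (the AP-1 site).
SMAD6: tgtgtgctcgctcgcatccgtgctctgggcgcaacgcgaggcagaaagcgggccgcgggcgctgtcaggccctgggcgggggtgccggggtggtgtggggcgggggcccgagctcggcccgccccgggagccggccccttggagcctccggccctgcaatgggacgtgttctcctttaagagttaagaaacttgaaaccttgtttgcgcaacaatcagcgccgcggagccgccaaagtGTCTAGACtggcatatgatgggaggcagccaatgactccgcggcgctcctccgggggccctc
SKIL: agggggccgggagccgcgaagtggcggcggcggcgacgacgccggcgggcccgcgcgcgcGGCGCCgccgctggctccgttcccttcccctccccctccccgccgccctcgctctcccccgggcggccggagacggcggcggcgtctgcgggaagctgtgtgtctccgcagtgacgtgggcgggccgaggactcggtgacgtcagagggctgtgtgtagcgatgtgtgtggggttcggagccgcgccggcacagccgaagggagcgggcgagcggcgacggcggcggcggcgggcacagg
BHLHE40: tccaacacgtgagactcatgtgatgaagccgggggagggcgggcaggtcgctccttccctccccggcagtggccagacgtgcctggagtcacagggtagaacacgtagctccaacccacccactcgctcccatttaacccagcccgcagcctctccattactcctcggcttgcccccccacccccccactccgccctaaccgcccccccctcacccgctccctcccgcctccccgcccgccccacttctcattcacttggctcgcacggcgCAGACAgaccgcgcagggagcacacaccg
The SMAD6 promoter held 1 GTCTAGAC, whose letters occur in 0.202% of all 35116 RefSeq promoters of this length. The SKIL promoter held 1 GGCGCC (19.2% of all promoters), and the BHLHE40 promoter 1 CAGACA on the strand shown (16.9% on either strand). TGACTCA, found in 4.95% of promoters, was in none of the 3 windows. Each window held a single match, so no motifs overlapped. These matches describe the letters; whether SMAD2/3 sat on them was not tested. The 3 promoters were chosen after the values of their regions and their motifs were seen.

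Several regions of both lines lie beside genes of small RNAs, so the mature sequences that these loci give are shown with the seed, bases 2 to 8, in capitals. They are from RefSeq (GRCh38.p14). Sequences of the miR-23a cluster, which also has a region of both lines beside it, are not shown.
miR-181a-5p: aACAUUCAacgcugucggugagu
miR-181b-5p: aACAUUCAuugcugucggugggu
miR-181c-5p: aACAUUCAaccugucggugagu
miR-181d-5p: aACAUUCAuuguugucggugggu
miR-99b-5p: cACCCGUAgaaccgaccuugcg
let-7e-5p: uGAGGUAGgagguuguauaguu
miR-125a-5p: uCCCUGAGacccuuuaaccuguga
The 4 members of the miR-181 family share the seed ACAUUCA. MicroRNAs pair through the seed with messenger RNAs and lower their output. The 3 microRNAs of the chromosome 19 cluster, miR-99b, let-7e and miR-125a, each have a seed of their own.

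In all 4 libraries, 65 of the 311 regions had a listed peak, or 20.9% (16.8 to 25.8). A Hs578T peak was listed in 237 regions at 16 h and in 178 at 1.5 h. For BT549 the numbers were 228 at 16 h and 243 at 1.5 h. The whole lists held 1849 peaks at 16 h and 1373 at 1.5 h in Hs578T, and 8153 and 9225 in BT549. Regions with both times in BT549 and 16 h alone in Hs578T formed the next class, with 62 regions, followed by 37 with 16 h alone in Hs578T and 1.5 h alone in BT549. Opposite single times were thus listed in 55 regions, against 57 with the same single time in both lines.

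**Figure D1:**
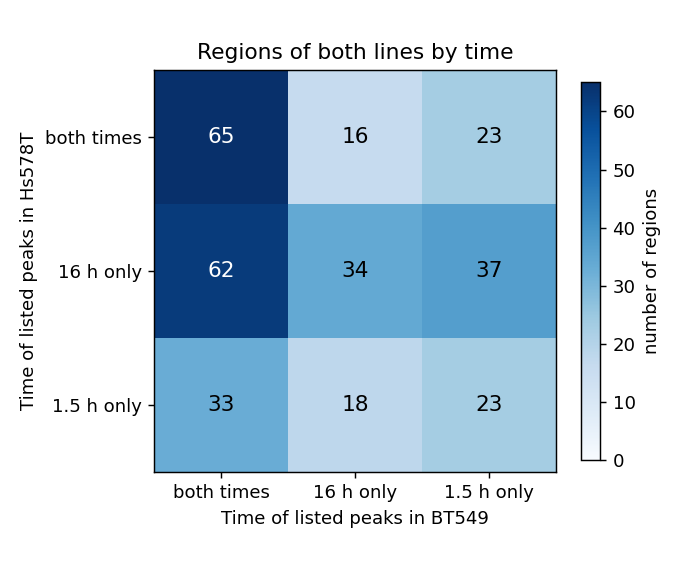
Number of regions of both lines by the time at which a peak was listed, with Hs578T in rows and BT549 in columns; each cell gives a count and the shade follows it. The 65 regions with peaks at both times in both lines form the fullest cell, just ahead of the 62 with 16 h alone in Hs578T and both times in BT549.

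Within a line, the regions of both lines were listed at both times more often than the regions of that line alone, as a description of these libraries. In Hs578T the share was 33.4% (28.4 to 38.9), or 104 of 311, against 9.92% (8.80 to 11.2) of the 2481 regions of Hs578T alone; over all Hs578T regions it was 12.5%. In BT549 it was 51.4% (45.9 to 56.9), or 160 of 311, against 26.5% (25.8 to 27.3) of the 13078 regions of BT549 alone, and 27.1% over all BT549 regions. The rule takes a peak of the other line at any time, and a region with peaks at 2 times is wider and had more chances to meet one. A peak of the other line can also join peaks of the 2 times that do not touch each other. Regions of a single line have no such link, so part of the difference can follow from the joining. A split by score removes neither effect. The share was also the higher one in both score ranges. Among those with a top score of 100 or more in the line, the shares were 72.1% (62.8 to 79.8) against 59.6% (53.7 to 65.3) in Hs578T and 79.0% (72.1 to 84.6) against 54.8% (53.4 to 56.2) in BT549. Under a score of 100 they were 14.0% (9.93 to 19.4) against 3.72% (3.00 to 4.59) in Hs578T and 21.5% (15.6 to 28.7) against 10.3% (9.67 to 10.98) in BT549. The split at 100 was added after seeing the data, and the difference was not tested.

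The score of a peak is the authors' peak-caller value, which in MACS grows as the p-value of the peak falls. It is mainly read here within its own list, because read depth is unknown. Scores from different lists are printed side by side as listed values, and ranks within each list are used to compare lines or times. Counts at a score of 100 use the same cut in every list, which need not mean the same in each. In each list the peaks in regions of both lines had a higher median score than the other peaks. The medians were 77.6 against 60.6 in Hs578T at 16 h and 70.7 against 60.2 in Hs578T at 1.5 h. In BT549 they were 91.3 against 76.1 at 16 h and 111 against 88.4 at 1.5 h. The interquartile ranges overlapped in every list, from 58.7 to 124 against 53.8 to 77.3 in Hs578T at 16 h, for example. Of the peaks in regions of both lines, 90 of 259 scored at least 100 in Hs578T at 16 h (34.7%), where 18.9% of the whole list did. The counts were 58 of 194 in Hs578T at 1.5 h (29.9%, whole list 12.0%), 104 of 237 in BT549 at 16 h (43.9%, whole list 33.4%) and 146 of 262 in BT549 at 1.5 h (55.7%, whole list 41.9%). Scores belong to the peaks that the rule used, so these are descriptions.

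**Figure D2:**
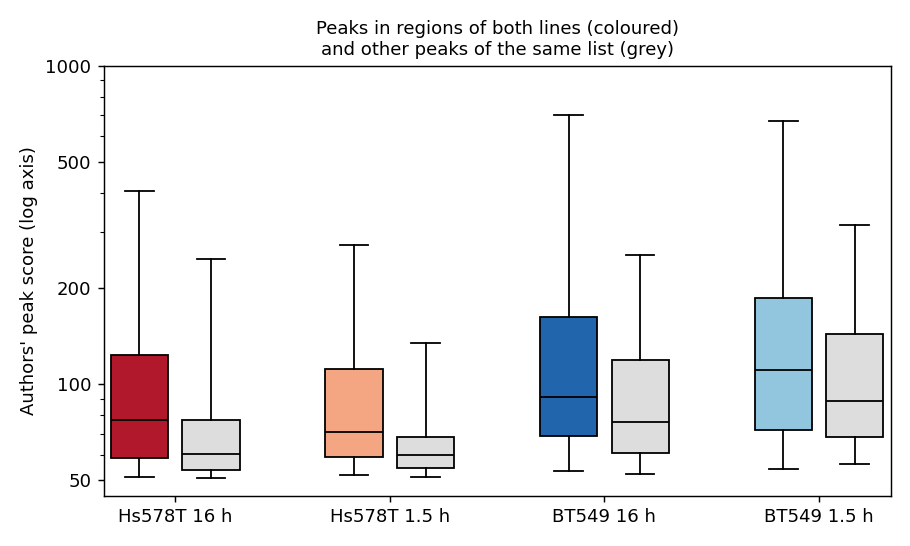
Authors' peak scores on a log axis for peaks in regions of both lines (coloured boxes, left of each pair) and the other peaks of the same list (grey boxes, right). Boxes span the interquartile range with the median as a line, and whiskers run from the 5th to the 95th percentile; in each list the coloured median lies above the grey one, and the boxes overlap.

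The regions of both lines held 14.0% of the peaks of the Hs578T list at 16 h, 14.1% at 1.5 h, and 2.91% and 2.84% of the BT549 lists at 16 h and 1.5 h. Their share was higher at the head of each list. Of the 100 highest-scoring peaks, 28 in Hs578T at 16 h, 38 in Hs578T at 1.5 h, 19 in BT549 at 16 h and 15 in BT549 at 1.5 h lay in regions of both lines. After these 100 and up to rank 500 they made up 24.5% and 19.25% in Hs578T and 4.75% and 5.75% in BT549, at 16 h and 1.5 h in that order. Beyond rank 500 the shares were 9.86% and 9.05% in Hs578T and 2.60% and 2.57% in BT549. The same rank lies deeper in the shorter Hs578T lists than in the BT549 lists. Even so, 34 of the 311 regions (10.9%) ranked in the lower 50% of every list that held them. In 1 line taken alone this held for 96 in Hs578T and 111 in BT549. The top 10% of a list was reached in both lines by 25 regions (8.04%), in Hs578T by 67 and in BT549 by 62. The same shares are not given here for regions of a single line.

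Regions of both lines had a larger median width than regions of a single line. Their median width was 377 bp, with an interquartile range of 222 to 552 bp, against 144 bp for regions of Hs578T alone and 233 bp for those of BT549 alone. Joining overlapping peaks widens a region, so part of this follows from the rule. Single peaks were less affected, with medians of 178 against 149.5 bp in Hs578T at 16 h and 279 against 239 bp in BT549 at 16 h. The 65 regions of all 4 lists had a median of 627 bp. Only 3 of them were under 150 bp, compared with 55 of all 311 (17.7%). Under 150 bp were also 61.1% of the regions of Hs578T alone and 16.0% of those of BT549 alone. In this measure regions of both lines were thus close to those of BT549 alone. The largest share of bases common to a Hs578T and a BT549 peak, as a percent of the longer peak, had a median of 59.6% per region.

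Where all 4 lists had a peak, the distance between peak centres was measured between lines and between times. Between Hs578T and BT549 the centres of the highest-score peaks lay a median of 54.5 bp apart at 16 h and 70 bp at 1.5 h, over the 65 regions. Between 16 h and 1.5 h the median was 46.5 bp in Hs578T and 58.5 bp in BT549. Centres within 100 bp of each other were counted in 41 and 42 of 65 regions between the lines, at 16 h and at 1.5 h, and in 47 and 44 of 65 between the times, in Hs578T and in BT549. Joining peaks into regions limits all of these distances to the width of the region, between lines and between times alike.

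**Figure D3:**
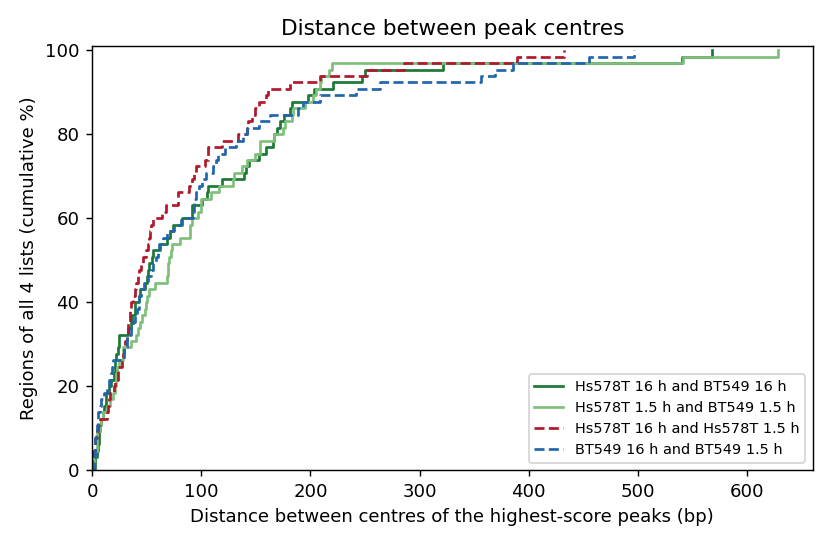
Cumulative percent of the 65 regions of all 4 lists against the distance in bp between the centres of the highest-score peaks of 2 lists; solid lines compare Hs578T with BT549 at 1 time, dashed lines compare 16 h with 1.5 h in 1 line. All 4 curves pass 60% by 100 bp.

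The order of regions by score was only loosely shared between the lines. Across the 65 regions of all 4 lists, Spearman's rho between Hs578T and BT549 scores was 0.22 at 16 h and 0.14 at 1.5 h. Between 16 h and 1.5 h it was 0.56 in Hs578T and 0.82 in BT549. Over every region with a peak in both lines at the same time, rho was 0.22 at 16 h (177 regions) and 0.17 at 1.5 h (144 regions). These are correlations across regions of single libraries, in which all regions of a list share its depth, peak caller and lower score limit, and some regions lie side by side; they carry no test.

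**Figure D4:**
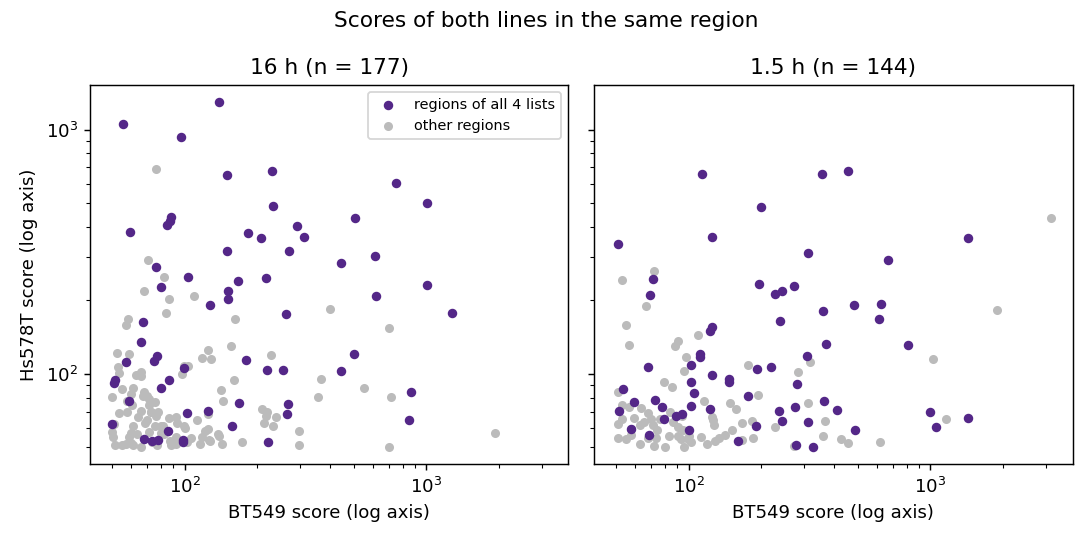
Authors' peak scores of Hs578T (vertical) and BT549 (horizontal) in the same region, on log axes, at 16 h (177 regions) and 1.5 h (144 regions). Purple points are the 65 regions of all 4 lists and grey points the others; the points spread widely, and high Hs578T scores stand beside low as well as high BT549 scores.

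The 20 leading regions of all 4 lists were ordered by their worst rank, taken as a percent of the list. First came chr10:74078964-74080120, between DDIT4, a stress-induced inhibitor of mTORC1, and DNAJB12, a co-chaperone. Its scores were 500.5 at 16 h and 360.2 at 1.5 h in Hs578T, and 1001 at 16 h and 1434 at 1.5 h in BT549. It ranked 26 and 12 in the Hs578T lists and 13 and 7 in the BT549 lists, at 16 h and 1.5 h, so it stood near the head of each.

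**Figure D5:**
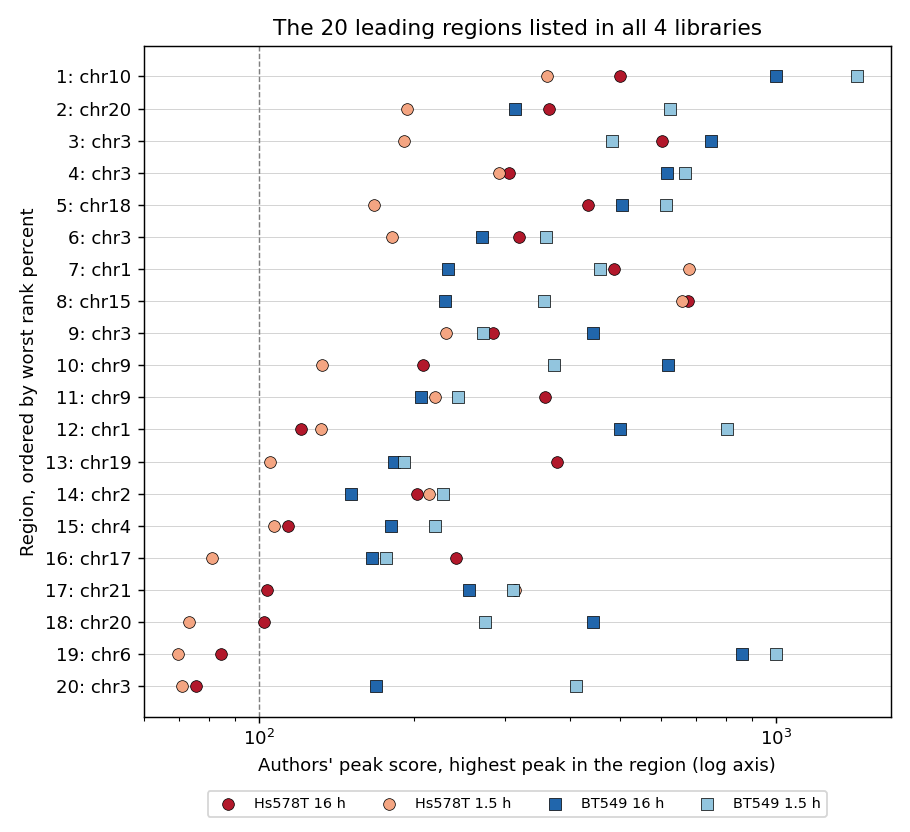
Highest authors' peak score in each of the 20 leading regions of all 4 lists (rows, in order of worst rank percent, with their chromosome) on a log axis; red circles are Hs578T at 16 h, pale red circles Hs578T at 1.5 h, blue squares BT549 at 16 h and pale blue squares BT549 at 1.5 h, and the dashed line marks 100. In the first 15 rows every point lies above 100, and from row 18 on the Hs578T points lie near or below it while the BT549 points lie above.

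Among the leading regions, some lie by genes of TGFβ pathway inhibitors, named here after their values were seen and not counted against a list. The region on chr18:46478155-46479465 lies before SMAD7, the inhibitory SMAD that targets the activated receptor. It had 433 at 16 h and 167 at 1.5 h in Hs578T, and 505 at 16 h and 613 at 1.5 h in BT549. With 9 peaks it held more listed peaks than any other of the 311 regions, and both neighbours on the same chromosome, chr18:46428232-46428757 and chr18:46502669-46502988, were listed in Hs578T at 16 h and in BT549 at both times.
SMAD6, the inhibitory SMAD best known for restraining BMP signalling, starts at the region on chr15:66994310-66994850. This region scored 675 at 16 h and 658 at 1.5 h in Hs578T, and 229 at 16 h and 356 at 1.5 h in BT549. It ranked at 0.649% at 16 h and 0.291% at 1.5 h of the Hs578T lists, and 6.46% at 16 h and 4.195% at 1.5 h of the BT549 lists, within the top 10% of each.
PMEPA1 encodes a membrane protein that TGFβ induces and that holds receptor SMADs away from the receptor. The region on chr20:56284876-56285732 lies in this gene and scored 364 at 16 h and 193 at 1.5 h in Hs578T, and 313 at 16 h and 624 at 1.5 h in BT549. Beside it, chr20:56283893-56284260 was listed at opposite times, with 79.8 in Hs578T at 16 h and 219 in BT549 at 1.5 h.
SKIL encodes SnoN, a co-repressor that binds SMAD complexes. Its start has 3 regions of both lines within 1899 bp. The middle region, on chr3:170075000-170075620, had 75.7 at 16 h and 70.9 at 1.5 h in Hs578T, and 168 at 16 h and 410.2 at 1.5 h in BT549. Counted from the top, it ranked at 30.0% at 16 h and 25.7% at 1.5 h of the Hs578T lists, and 12.5% at 16 h and 3.04% at 1.5 h of the BT549 lists. By percent of the list it stood higher in BT549. Its plain rank at 16 h was 554 in the shorter Hs578T list and 1016 in the BT549 list. LEMD3, an inner nuclear membrane protein that binds SMAD2 and SMAD3, holds the region on chr12:65564115-65564496, listed with 147 in Hs578T at 16 h and 217 in BT549 at 1.5 h only.

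Repressors of the helix-loop-helix class formed another group. BHLHE40 is flanked by regions on chr3:5019864-5021065 and chr3:5028269-5028998. The first had 305 at 16 h and 292 at 1.5 h in Hs578T, and 616 at 16 h and 668 at 1.5 h in BT549. The other had 318 at 16 h and 181 at 1.5 h in Hs578T, and 271 at 16 h and 359.9 at 1.5 h in BT549. The lowest of the 8 values was 181, and a further region on chr3:5068178-5068617 had 102 at 1.5 h in Hs578T, with no 16 h peak listed, and 129 at 16 h and 284 at 1.5 h in BT549.
HES1, the Notch-induced repressor, is likewise flanked. On the side of higher coordinates, chr3:193858318-193858944 had 284 at 16 h and 229.9 at 1.5 h in Hs578T, and 444 at 16 h and 272 at 1.5 h in BT549. On the other side, chr3:193852321-193853105 had 403 at 16 h and 99.2 at 1.5 h in Hs578T, and 292 at 16 h and 125 at 1.5 h in BT549. Its ranks lay at 2.33% at 16 h and 12.2% at 1.5 h of the Hs578T lists, and 3.92% at 16 h and 31.1% at 1.5 h of the BT549 lists. A further region between them, chr3:193857138-193857574, was listed at 16 h only in both lines, with 77.2 in Hs578T and 144 in BT549.
The ID proteins lack the basic part that binds DNA and so block helix-loop-helix partners. Regions of both lines in the neighbourhood of ID genes are given here as examples chosen after their values were seen, with no rule on distance. For ID1, chr20:30191776-30192437 had 102 at 16 h and 73.4 at 1.5 h in Hs578T, and 443 at 16 h and 274 at 1.5 h in BT549. For ID4, chr6:19804456-19805516, which lies at some distance before the gene, had 84.3 at 16 h and 69.8 at 1.5 h in Hs578T, and 860.3 at 16 h and 1000.1 at 1.5 h in BT549. At ID2, chr2:8819150-8819524 led the regions listed at 16 h only in both lines, with 94.7 in Hs578T and 161 in BT549. For ID3, chr1:23888788-23889111 had 70.6 at 16 h and 92.8 at 1.5 h in Hs578T, and 124 at 16 h and 102 at 1.5 h in BT549. A second region by ID3, chr1:23884691-23885217, had 228 at 16 h and 159 at 1.5 h in Hs578T, and 55.2 at 1.5 h in BT549, with no 16 h peak listed. It ranked at 6.81% at 16 h and 5.24% at 1.5 h of the Hs578T lists, and 95.8% at 1.5 h of the BT549 list. The ID1 region above ranked at 18.4% at 16 h and 23.1% at 1.5 h of the Hs578T lists, and 1.55% at 16 h and 6.99% at 1.5 h of the BT549 lists, and the ID4 region at 24.7% at 16 h and 27.4% at 1.5 h of the Hs578T lists, and 0.27% at 16 h and 0.314% at 1.5 h of the BT549 lists. By percent of the list, the ID1 and ID4 regions stood nearer the top of the BT549 lists, and the second ID3 region nearer the top of the Hs578T lists. By plain rank at 1.5 h, the ID1 region was 317 in Hs578T and 645 in BT549. A second region by ID1, chr20:30196130-30196764, had 52.6 at 16 h and 51.4 at 1.5 h in Hs578T, and 221 at 16 h and 277 at 1.5 h in BT549.

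A group of 4 regions of all 4 lists, joined within 50 kb, lay around DDIT4. Position alone does not assign each of them to this gene. In addition to the leading region, chr10:74020229-74021316 and chr10:74032268-74033612 were listed 4 times over, as was chr10:74080381-74080997. The one next to the start of DDIT4, from 74032268, had 935 at 16 h and 482 at 1.5 h in Hs578T, and 96.7 at 16 h and 199.9 at 1.5 h in BT549. The one further before the gene, from 74020229, had 1294 at 16 h and 656 at 1.5 h in Hs578T, and 138 at 16 h and 114 at 1.5 h in BT549. The first ranked at 0.324% at 16 h and 0.51% at 1.5 h of the Hs578T lists, and 35.5% at 16 h and 13.5% at 1.5 h of the BT549 lists, and the other at 0.162% at 16 h and 0.364% at 1.5 h of the Hs578T lists, and 17.4% at 16 h and 35.8% at 1.5 h of the BT549 lists. Both were at the head of the Hs578T lists and further down in the BT549 lists, whereas the leading region on the far side was near the head of all 4. Its neighbour, from 74080381, had 249.6 at 16 h and 73.6 at 1.5 h in Hs578T, and 103 at 16 h and 102 at 1.5 h in BT549. With 7 peaks each, the region next to the start of DDIT4, chr1:875720-876689 in the SAMD11 group and chr3:156534466-156535200 held the most peaks after the SMAD7 region. The 4 regions around DDIT4 spanned 60769 bp, in which BT549 had 5 regions of its own and Hs578T none.

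Other transcription factor genes among the leading regions were FOXP1, IRF2BP2, the DLX pair, ZNF827 and HOXB2. The FOXP1 region, on chr3:71560128-71560759 inside this forkhead repressor gene, had 604 at 16 h and 191 at 1.5 h in Hs578T, and 750.2 at 16 h and 483 at 1.5 h in BT549. It ranked at 0.919% at 16 h and 3.64% at 1.5 h of the Hs578T lists, and 0.38% at 16 h and 2.10% at 1.5 h of the BT549 lists. IRF2BP2, a co-repressor, lies next to chr1:234748127-234749051, which had 121 at 16 h and 132 at 1.5 h in Hs578T, and 499.6 at 16 h and 804 at 1.5 h in BT549. Between the homeobox genes DLX1 and DLX2, chr2:172961631-172962416 had 202 at 16 h and 213 at 1.5 h in Hs578T, and 151 at 16 h and 227 at 1.5 h in BT549. Among the 20 leading regions it was ranked 14, and the IRF2BP2 region 12.
Near the start of ZNF827, a zinc finger gene, lies chr4:146857827-146858652, with 114 at 16 h and 107 at 1.5 h in Hs578T, and 180.0 at 16 h and 219 at 1.5 h in BT549. HOXB2, a homeobox gene that patterns the hindbrain, has chr17:46621803-46622419 at its start, with 240.4 at 16 h and 81.3 at 1.5 h in Hs578T, and 166 at 16 h and 176 at 1.5 h in BT549. KLF10, a Krüppel-like factor first described as TGFβ-inducible, has a pair of regions of all 4 lists at its start. One, on chr8:103667640-103668305, had 61.1 at 16 h and 164 at 1.5 h in Hs578T, and 157 at 16 h and 238 at 1.5 h in BT549. It ranked at 49.0% at 16 h and 4.81% at 1.5 h of the Hs578T lists, and 14.2% at 16 h and 9.16% at 1.5 h of the BT549 lists. The other, on chr8:103666600-103667338, had 87.8 at 16 h and 65.4 at 1.5 h in Hs578T, and 79.8 at 16 h and 79.3 at 1.5 h in BT549. Its ranks were 22.8% at 16 h and 35.3% at 1.5 h in Hs578T, and 46.9% at 16 h and 59.2% at 1.5 h in BT549. The first of the pair thus stood earlier in the 1.5 h list of each line and the other in the 16 h list. TBX3, a T-box repressor, has chr12:115121632-115122500 at its start, with 53.5 at 16 h and 109 at 1.5 h in Hs578T, and 77.7 at 16 h and 102 at 1.5 h in BT549.

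Some regions of both lines lay side by side. When regions within 50 kb were joined, the 311 formed 272 places, of which 23 held more than 1 region and together 62. No such count is given here for regions of a single line. Whether lying side by side is particular to regions of both lines is therefore not known. The fullest was chr1:856307-880373, at SAMD11, with 8 regions, 5 of them listed in all 4 libraries. Its strongest, from 876767 to 877439, had 486 at 16 h and 678 at 1.5 h in Hs578T, and 232 at 16 h and 457 at 1.5 h in BT549. Hs578T had 2 regions of its own in this span and BT549 none.
The HOXC cluster, homeobox genes of the body axis, came next with 6 regions on chr12:54361949-54412748, of which 1 was listed in all 4 libraries. That one, from 54411590 to 54412271 at HOXC4, had 226 at 16 h and 119 at 1.5 h in Hs578T, and 80.2 at 16 h and 309 at 1.5 h in BT549. The span also held 5 regions of Hs578T alone and 4 of BT549 alone. In the HOXA cluster, 2 regions of both lines, chr7:27170228-27170982 and chr7:27212453-27212988, were listed at both times in Hs578T and at 16 h only in BT549. The first, at HOXA4, had 250.03 at 16 h and 193 at 1.5 h in Hs578T, with 82.2 at 16 h in BT549. Between these 2 regions lay 10 of Hs578T alone and 2 of BT549 alone. ZNF503, a zinc finger repressor gene, has 2 regions at its start on chromosome 10 from 77161252 to 77162757, listed at both times in Hs578T and at 1.5 h only in BT549. The stronger had 288 at 16 h and 242 at 1.5 h in Hs578T, and 53.2 at 1.5 h in BT549, with no 16 h peak listed.

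Regions of both lines lay at or beside loci of the microRNAs shown above on 3 chromosomes. The region on chr9:127421167-127422014, near the start of MIR181A2HG, the host of miR-181a and miR-181b on this chromosome, had 208 at 16 h and 133 at 1.5 h in Hs578T, and 619 at 16 h and 372 at 1.5 h in BT549. On chromosome 1, the region from 198904602 to 198905189 lies in MIR181A1HG, the other host of miR-181a and miR-181b, and had 1057 at 16 h and 341 at 1.5 h in Hs578T, and 55.8 at 16 h and 51 at 1.5 h in BT549. It ranked 4 and 14 in the Hs578T lists but 7250 and 9088 in the BT549 lists. On chromosome 19, chr19:13958166-13958875 lies between the microRNA cluster of miR-23a and that of miR-181c and miR-181d, and had 75.5 at 16 h and 77.6 at 1.5 h in Hs578T, and 269 at 16 h and 364 at 1.5 h in BT549. Genes at some distance cannot be assigned to it from position alone.
Just before the cluster of miR-99b, let-7e and miR-125a, 2 regions of all 4 lists stood within 1118 bp. The first, chr19:52193014-52193494, had 378 at 16 h and 105 at 1.5 h in Hs578T, and 182 at 16 h and 191 at 1.5 h in BT549. The other, chr19:52193543-52194131, had 654 at 16 h and 68.3 at 1.5 h in Hs578T, and 149.96 at 16 h and 94.3 at 1.5 h in BT549. Within the Hs578T lists the second ranked at 0.757% at 16 h and 29.1% at 1.5 h, and within the BT549 lists at 15.5% and 46.1%. LINC00963, a long noncoding RNA gene, has 2 such regions. Its region on chr9:132262539-132263192 had 358 at 16 h and 219 at 1.5 h in Hs578T, and 206 at 16 h and 242 at 1.5 h in BT549, and chr9:132250812-132251873 had 232 at 16 h and 60.4 at 1.5 h in Hs578T, and 1006 at 16 h and 1049.8 at 1.5 h in BT549.

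Regions listed at fewer times included some at VIM, VCAN, JUN and GADD45B. These genes were chosen after their values were seen and were not counted against a list. VIM encodes vimentin, the intermediate filament of mesenchymal cells, and starts at the region on chr10:17270103-17271456. It had 155 in Hs578T at 16 h, with no 1.5 h peak listed, and 702 at 16 h and 841 at 1.5 h in BT549. VCAN, the matrix proteoglycan versican, holds chr5:82770110-82770670, with 95.6 in Hs578T at 16 h and 365 at 16 h and 144 at 1.5 h in BT549. Neither had a Hs578T peak at 1.5 h in its region. JUN, a subunit of AP-1, a common partner of SMAD complexes, lies beside chr1:59249909-59250242, with 67.1 in Hs578T at 16 h and 60.5 in BT549 at 1.5 h. GADD45B, a stress gene that TGFβ is known to induce, lies after chr19:2474616-2475097, with 67.0 in Hs578T at 16 h and 217 at 16 h and 104 at 1.5 h in BT549.

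Regions listed at the same single time in both lines had median widths of 216 bp at 16 h and 222 bp at 1.5 h, against 627 bp for those of all 4 lists, which join more peaks. Of the 34 with 16 h only in both lines, the first 5 by worst rank were the ID2 region, the one between the HES1 flanks, chr6:169377468-169377580, chr11:98604139-98604500 and chr7:20306309-20306426. The chromosome 7 region had the highest score of these in the Hs578T list, 178, beside 84.1 in BT549, in a region of 118 bp. The chromosome 11 region had 66.4 in Hs578T and 238 in BT549. The chromosome 6 region had 107 in Hs578T and 103 in BT549.
Among the 23 with 1.5 h only in both lines, the first 5 had no score of 100 or more. They were chr19:1250838-1251104, chr12:120694642-120694786, chr2:229064606-229064709, chr2:49310499-49310609, and chr3:35074319-35074458. Their scores ran from 58.8 to 93.0 in Hs578T and from 79.3 to 94.5 in BT549. A score of 100 or more in any list was reached in 3 of these 23 regions, in 11 of the 34 with 16 h only and in 60 of the 65 of all 4 lists, which had 4 peaks or more to reach it with rather than 2.
Of the 55 regions at opposite times, the leading 5 were those in LEMD3 and PMEPA1, chr19:50143737-50144180, chr14:68410628-68411021 and chr6:89791406-89791793. The first of these 3 had 89.1 in Hs578T at 16 h and 187 in BT549 at 1.5 h, and the chromosome 14 region 88.6 and 168 in the same lists. At the chromosome 6 region the times were reversed, with 65.8 in Hs578T at 1.5 h and 116 in BT549 at 16 h.

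Where Hs578T had both times and BT549 one, the first regions were chr11:62608963-62609346, chr2:210360699-210361220, chr12:11469197-11469321, chr8:138576154-138576273 and chr1:875290-875672 in the SAMD11 group. The chromosome 2 region had 159 at 16 h and 71.5 at 1.5 h in Hs578T, and 157 at 1.5 h in BT549, with no 16 h peak listed. The chromosome 12 region, 125 bp wide, had 107 at 16 h and 159.8 at 1.5 h in Hs578T, and 99.7 at 16 h in BT549, with no 1.5 h peak listed. Hs578T scores at these 5 places lay between 63.5 and 159.8, and the BT549 scores between 91.8 and 157. Where BT549 had both times and Hs578T one, the first 5 held the VIM region and chr21:45148274-45148934, with 184 at 16 h in Hs578T, with no 1.5 h peak listed, and 400.5 at 16 h and 300.02 at 1.5 h in BT549.

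The other 3, chr1:121484054-121485466, chr7:61968620-61969728 and chr6:58776450-58779378, lay less than 1 Mb from the longest peak-free stretch of the chromosome concerned, which on most chromosomes spans the centromere. The first of these had 434 at 1.5 h in Hs578T, with no 16 h peak listed, and 2309.9 at 16 h and 3144 at 1.5 h in BT549. The second had 182 at 1.5 h in Hs578T, with no 16 h peak listed, and 1885 at 16 h and 1887 at 1.5 h in BT549, and the last 115 at 1.5 h in Hs578T, with no 16 h peak listed, and 1557 at 16 h and 1025 at 1.5 h in BT549. These BT549 scores were among the highest of their lists, and the chromosome 6 region was also the widest of the 311, at 2929 bp, followed by the chromosome 1 region at 1413 bp and chr14:75447007-75448414 at 1408 bp. The chromosome 14 region, which lies by no such edge, had 64.7 at 16 h and 59.0 at 1.5 h in Hs578T, and 848 at 16 h and 487 at 1.5 h in BT549. In all, 12 of the 311 regions (3.86%) lay this close to such an edge, against 2.18% of the regions of Hs578T alone and 1.84% of those of BT549 alone, among them the ID1 regions and chr21:9826892-9827719, which ranked 17 among the leading regions and had 104 at 16 h and 313 at 1.5 h in Hs578T, and 255 at 16 h and 310.4 at 1.5 h in BT549. The part of repeats in these scores was not tested.

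In 18 of the 311 regions (5.79%) the peak reached the top 10% of a Hs578T list but only the lower 50% of the BT549 lists. In 10 (3.22%) the reverse held. Among all 311, 67 reached the top 10% in Hs578T and 111 stood in the lower 50% in BT549. For the reverse, 62 reached the top 10% in BT549 and 96 stood in the lower 50% in Hs578T. Whether such pairs differ in number from an unrelated pairing of ranks was not tested. Of the 18, the MIR181A1HG region had the best Hs578T rank. Next by that rank was chr9:81871338-81872153, which had 688 at 16 h and 273 at 1.5 h in Hs578T, and 76.0 at 16 h in BT549, with no 1.5 h peak listed. At the other end, chr17:48255123-48256219 ranked 2 in both BT549 lists and 1190 in Hs578T at 16 h. Its scores were 57.0 at 16 h in Hs578T, with no 1.5 h peak listed, and 1913 at 16 h and 2234 at 1.5 h in BT549. The start of KCTD11, a gene for a cullin adaptor, holds chr17:7255031-7255768, with 50.2 at 16 h in Hs578T, with no 1.5 h peak listed, and 702 at 16 h and 866 at 1.5 h in BT549. SCD, the fatty acid desaturase gene, lies before chr10:102133008-102134154, with 52.0 at 1.5 h in Hs578T, with no 16 h peak listed, and 353 at 16 h and 456 at 1.5 h in BT549, and TRIB1, a pseudokinase gene, starts at chr8:126442162-126442761, with 52.8 at 1.5 h in Hs578T, with no 16 h peak listed, and 212 at 16 h and 619 at 1.5 h in BT549. A listing in both lines can therefore join a leading peak of one line to a peak near the limit of the other.

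The 16 h and 1.5 h scores stood in opposite order in the lines. In the 65 regions of all 4 lists, the 16 h score was the higher in 48 in Hs578T and in 21 in BT549. The median scores were 176 at 16 h and 95.7 at 1.5 h in Hs578T, and 150.1 and 191 in BT549. The same held outside these regions. In regions of Hs578T alone listed at both times, 81.3% scored higher at 16 h, and in those of BT549 alone 30.9%. The order of the times was thus seen outside the regions of both lines too, and since read depth, which is unknown, enters each score, occupancy at the 2 times cannot be told apart from depth.

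Chromosomes contributed unevenly. Chromosome 1 held 45 of the 311 regions (14.5%), against 12.5% of the regions of Hs578T alone and 9.74% of those of BT549 alone; 8 of the 45 were the SAMD11 group. On chromosome 19, 22.4% of Hs578T regions were also listed in BT549 (13, beside 45 of Hs578T alone), and on chromosome 15 4.30% (4, beside 89). The X chromosome held 11 regions of both lines, or 6.11% of its Hs578T regions. Over all chromosomes this share was 11.1%. Of the BT549 regions, 4.94% on chromosome 19, 1.66% on chromosome 15 and 3.25% on X were regions of both lines, against 2.32% over all. X thus lay below the share over all in Hs578T and above it in BT549. The counts are small, and no difference between chromosomes was tested.

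At the limit of the rule, the smallest overlaps between a Hs578T and a BT549 peak were 9 bp on chromosome 17 from 2296223 to 2296810, 10 bp on chromosome 19 from 44174212 to 44174586 and 17 bp on chromosome 7 from 23509875 to 23510357. The median over all 311 regions was 142 bp. Just outside, Hs578T and BT549 regions came within 2 bp on chromosome 1 at 200348353, 4 bp on chromosome 5 at 98106233 and 7 bp on chromosome 9 at 127420804, the last near the start of MIR181A2HG. In all, 40 pairs of neighbouring Hs578T and BT549 regions lay within 500 bp of each other without touching.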

How the data were processed

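SMAD2/3 ChIP-seq peak lists of Hs578T and BT549 at 16 h and 1.5 h after TGFβ3 were used, 1 library each. The submitters' processing notes name hg19 as build and, as tools, Bowtie 1.1.0, MACS 1.4.2 and Picard; settings and the use of the input are not given there. The authors deposited 1 list per library, so replicates were not pooled, with a score per peak that they computed; its lowest values are 50.01 to 50.02. The score grows with read depth, which is unknown, so it was used within a list, except that the order of 16 h and 1.5 h scores of a line is given as a description.

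Peaks sharing 1 bp or more were merged into regions, and a region's score in a list is its highest peak. Shares carry 95% Wilson intervals. The merging was checked on simulated lists. Regions named by rule are the 20 leading regions of all 4 lists, 5 per other time class, the 3 nearest to either side of the overlap limit, the 3 widest and the 3 with the most peaks; all others, and every gene name, were chosen after their values were seen. Members, lists and tests were chosen with earlier results of these data known. Shares of motifs under peaks, shares at promoters and counts of listed genes need hg19 sequence and annotation, which were not used here. Python 3.11.15, numpy 2.4.6, pandas 2.3.3, scipy 1.17.1 and matplotlib 3.10.9 were used.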

Additional observations from a re-analysis of the deposited data

Results flagged for a closer look

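At regions of both lines, Hs578T and BT549 stood in opposite order at 16 h and 1.5 h in each of 3 measures; with 1 library per line and time, the difference was not tested. Regions with a listed peak were 237 at 16 h and 178 at 1.5 h in Hs578T, a ratio of 1.33, and 228 and 243 in BT549, a ratio of 0.938. Peaks with a score of 100 or more in these regions were 90 and 58 in Hs578T, a ratio of 1.55, and 104 and 146 in BT549, a ratio of 0.712. The 16 h score was the higher in 48 of the 65 regions of all 4 lists in Hs578T and in 21 in BT549. Regions of 1 line listed at both times had the same order of scores. The whole lists had the same order too, with 1849 peaks at 16 h and 1373 at 1.5 h in Hs578T, and 8153 and 9225 in BT549. Of these, 350 and 165 scored 100 or more in Hs578T, and 2726 and 3866 in BT549. The order was thus not particular to regions of both lines. Read depth enters all 3 measures, and its part was not tested.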

How the results depend on the processing

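Of 311 regions of both lines, 67 were left when each list was cut to its peaks with a score of 100 or more before joining. With equal numbers of highest-score peaks 83 were left, with 50% of both peaks overlapping 196, and without peaks under 150 bp 185. The 65 regions of all 4 lists became 19, 26 and 26 under the first 3 of these; under the overlap limit both times had to hold such a pair. As a share of Hs578T regions, the regions of both lines were 17.6%, 3.54%, 7.02% and 16.0% under the 4 settings in that order, and 12.6% when peaks within 500 bp counted as shared. As a share of BT549 regions they were 1.36%, 4.28%, 1.46%, 1.65% and 2.70%. Leaving out 1 list at a time gave 177 to 245 regions, 8.01% to 13.01% of Hs578T regions and 1.32% to 2.75% of BT549 regions; the lowest count, 177, came without Hs578T at 16 h. Fewer peaks are left by construction in all but the 500 bp and overlap settings; beyond that, the cause was not tested. Without gap edges 299 regions stayed, 62 of them in all 4 lists, and counting regions within 50 kb as 1 place, an alternative added after seeing the data, gave 272. The alternatives for motifs, promoters and listed genes were not run. No paired analysis was possible because no result here comes from a test and the groups share only replicate number 1. The unknown depth of each library limits every count.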

Other observations

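A few regions of both lines lay at genes outside the groups above. TLE4, a Groucho co-repressor, starts beside chr9:82185882-82186419, with 339 at 16 h and 131 at 1.5 h in Hs578T and 56.6 at 1.5 h in BT549. SCD itself starts at chr10:102106666-102107129, listed with 62.0 at 1.5 h in Hs578T and 128 at 16 h and 128 at 1.5 h in BT549. Upstream of HOXB5, chr17:46671328-46671610 was listed with 78.3 in Hs578T at 16 h and 99.3 in BT549 at 1.5 h. All of these were chosen after their values were seen.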
